A study of Mus musculus with 9 samples.

Results

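A set of 10 genes of the skeletal muscle fibre was followed through RNA-seq libraries of mouse interscapular brown fat: Acta1, Myh1, Myh2, Myh4, Myh7, Ckm, Tnnt3, Myl1, Actn3 and Pvalb. They were chosen by symbol as genes of the contractile apparatus and of fast or slow fibres, and each matched 1 Ensembl gene identifier, so that 10 of 55416 genes in the count table are described. All 10 had a mean of at least 1 CPM (the count scaled to a column sum of 1000000), as had 12260 genes in all.

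The series targeted Ucp1, the uncoupling protein of brown fat, in adult Cas9-expressing C57BL/6J mice aged 8 to 10 weeks. According to the labels, 4 samples received AAV8 (an adeno-associated virus) with a Ucp1 guide RNA and 5 received AAV8 with a control guide RNA, injected into the brown fat, and all animals were then kept at 22 °C for 14 days. No source used here names the promoter that drives Cas9. The count table has 9 columns, each named by a number and BAT, the abbreviation of brown adipose tissue, which match the 9 brown fat samples as a tissue group. They are given here as libraries A to I, in the order of the table, and neither the labels nor the column names tie a number to a guide. No column was therefore given to a guide, no comparison between guides was made, and every range below mixes both guides and may include an effect of the guide, which was not tested.

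Skeletal muscle fibres contract by the sliding of thick myosin filaments along thin actin filaments, which are anchored in Z-discs. The myosin heavy chain that a fibre makes sets its type: Myh7 marks slow fibres, Myh2 fast 2A fibres, Myh1 fast 2X fibres and Myh4 fast 2B fibres. Interscapular brown fat lies directly on the muscles of the back, and brown adipocytes and muscle share a developmental origin. In bulk tissue, fewer cells of a type and less RNA per cell cannot be told apart, so a level below is that of the whole library. Whether the columns come from separate animals is not stated, and the spread between them may be partly technical. Each p-value below tests only whether a pair of genes varies together over these columns, treated as interchangeable. Both guides are mixed in the columns, so an effect of the guide may add to r and p, which was not tested.

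RefSeq promoters (GRCm38.p6, 250 bases before to 50 bases after the annotated start) were available for 8 of the 10 genes (all but Tnnt3 and Actn3), in 10 windows. Those of the 3 fast myosin genes are shown because these genes lie on the same chromosome and share a stretch of sequence near their starts. Capitals mark the longest run common to all 3, of 20 bases, which lies on the sense strand and starts 163 bases before the annotated start in Myh4, 165 before it in Myh1 and 130 before it in Myh2.

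Myh4, chr11:67237562-67237861, plus strand: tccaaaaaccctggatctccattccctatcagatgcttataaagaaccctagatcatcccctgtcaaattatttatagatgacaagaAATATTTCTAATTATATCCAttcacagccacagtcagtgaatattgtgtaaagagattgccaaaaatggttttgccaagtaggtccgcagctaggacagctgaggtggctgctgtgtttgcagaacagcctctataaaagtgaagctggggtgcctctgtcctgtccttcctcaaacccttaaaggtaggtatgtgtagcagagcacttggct
Myh1, chr11:67199852-67200151, plus strand: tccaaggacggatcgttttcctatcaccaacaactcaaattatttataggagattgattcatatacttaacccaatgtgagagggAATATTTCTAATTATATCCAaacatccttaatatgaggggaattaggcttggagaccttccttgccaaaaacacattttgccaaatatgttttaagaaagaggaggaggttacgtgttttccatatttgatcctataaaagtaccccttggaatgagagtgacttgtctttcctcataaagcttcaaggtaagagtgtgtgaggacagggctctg
Myh2, chr11:67170777-67171076, plus strand: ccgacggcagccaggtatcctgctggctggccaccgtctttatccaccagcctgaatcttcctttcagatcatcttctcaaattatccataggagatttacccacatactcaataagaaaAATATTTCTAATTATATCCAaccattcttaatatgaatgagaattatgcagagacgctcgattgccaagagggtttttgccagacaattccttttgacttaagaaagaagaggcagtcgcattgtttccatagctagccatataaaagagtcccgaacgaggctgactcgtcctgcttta

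On either strand, the run was found in 3 of 32544 distinct RefSeq promoters, those of Myh1, Myh2 and Myh4. The Acta1 window is shown because Acta1 had the highest median level per coding length of the 10 genes, although Myl1 was higher in library B; capitals mark a CArG box, the binding motif of serum response factor, which starts 73 bases before the annotated start.

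Acta1, chr8:123894726-123895025, minus strand: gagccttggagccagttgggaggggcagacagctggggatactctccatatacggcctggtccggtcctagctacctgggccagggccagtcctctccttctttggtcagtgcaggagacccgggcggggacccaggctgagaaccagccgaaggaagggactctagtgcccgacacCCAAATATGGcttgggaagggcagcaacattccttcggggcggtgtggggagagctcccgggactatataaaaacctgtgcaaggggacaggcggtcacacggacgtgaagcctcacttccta

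A CArG box on either strand was present in 2 of the 10 windows (those of Acta1 and Myh4), against 1.64% of all promoters. The E-box CANNTG, the motif of the myogenic factors, was present in 7 of the 10 windows, against 72.3% of all promoters. Those 7 windows belong to 6 of the 8 genes. The TATA box TATAAA was present in 5 of the 10 windows, against 13.6% of all promoters. CATTCC, the MCAT motif, was present in 5 windows, against 14.6%, and a MEF2 site in 3 windows, against 3.16%. These searches covered both strands, and a MEF2 site and a TATA box can overlap. The annotated start need not be the start used in these samples.

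All 9 columns contained skeletal muscle transcripts, in amounts that differed 15.5-fold between the extremes. The 10 genes together made up 1496 CPM in library A, 235 CPM in library B, 2158 CPM in library C, 880 CPM in library D, 3657 CPM in library E, 942 CPM in library F, 1616 CPM in library G, 877 CPM in library H and 728 CPM in library I. The highest, library E, had 0.366% of its counts in these genes, and the lowest, library B, had 0.0235%, a ratio of 15.5 (counting interval 14.9 to 16.2). In the order of the 9 sums, 1 pair of neighbours had overlapping exact (Clopper-Pearson) 95% intervals, library H and library D; the other neighbours were separated by more than counting error, which is the only error these intervals cover. Without library B the range was 5.02-fold, without library E it was 9.17-fold, and without both it was 2.96-fold. Column totals ranged from 15460829 to 17909534 counts, and mitochondrially encoded genes took 22.3% to 33.9% of them. No pair of columns agreed within sampling noise: for genes with at least 10 counts in every column, the closest pair, library F and library G, had a chi-square of 11.8 per degree of freedom.

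Acta1 (ENSMUSG00000031972), the actin of the skeletal thin filament, was listed at 49.0 CPM in library B, with a median of 242 CPM, and at 1032 CPM in library E, from 792 and 15959 counts. Tnnt3 (ENSMUSG00000061723), the fast troponin T that fixes the troponin complex to the thin filament, ranged from 18.3 CPM in library B through a median of 84.4 CPM to 420 CPM in library E. The range was 21.1-fold for Acta1 and 22.9-fold for Tnnt3. In both genes library B was lowest and library E highest, and the 7 other columns lay between them.

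Myh4 (ENSMUSG00000057003), the heavy chain of 2B fibres, was the most abundant of the 4 adult myosins in each column. Its level ranged from 51.4 CPM in library B through a median of 254 CPM to 686 CPM in library E. Myh1 (ENSMUSG00000056328), the 2X heavy chain, ranged from 6.07 to 251 CPM with a median of 66.1 CPM, a 41.4-fold range. Myh2 (ENSMUSG00000033196), the 2A heavy chain, ranged from 3.10 to 129 CPM with a median of 39.5 CPM, a 41.8-fold range. These wide ranges rest on few counts at the low end, 98 for Myh1 and 50 for Myh2 in library B. Myh7 (ENSMUSG00000053093), the slow heavy chain, ranged from 4.39 to 164 CPM with a median of 33.2 CPM, 37.4-fold, and its lowest column held 71 counts. Myh7 also had the next highest level in another column than the rest: library G was second for Myh7, with 78.0 CPM, whereas library C was second for the other 9 genes.

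Myl1 (ENSMUSG00000061816), the fast essential light chain that supports the myosin neck, varied least, from 65.4 CPM in library B through a median of 106 CPM to 278 CPM in library E, a 4.25-fold range. In library B, the column with the least muscle RNA by the other 9 genes, Myl1 was thus higher than Acta1: 1056 Myl1 counts stood against 792 Acta1 counts, a ratio of 1.33 (exact interval 1.21 to 1.46). In the 8 other columns the ratio was between 0.239 and 0.461. In the reference transcripts, 23.4% of the 50-base windows of Myl1 also occur in the pseudogene Mylf-ps, which had 0 to 11 counts a column.

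Actn3 (ENSMUSG00000006457), the alpha-actinin of the Z-disc in fast fibres, ranged from 6.93 CPM in library B through a median of 35.6 CPM to 108 CPM in library E. Ckm (ENSMUSG00000030399), the muscle creatine kinase that regenerates ATP, ranged from 23.6 CPM through a median of 95.7 CPM to 418 CPM. Pvalb (ENSMUSG00000005716), the calcium buffer parvalbumin of fast fibres, ranged from 7.18 CPM through a median of 34.3 CPM to 171 CPM. The ranges were 15.6-fold for Actn3, 17.7-fold for Ckm and 23.8-fold for Pvalb, with library B lowest and library E highest in each.

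**Figure D1:**
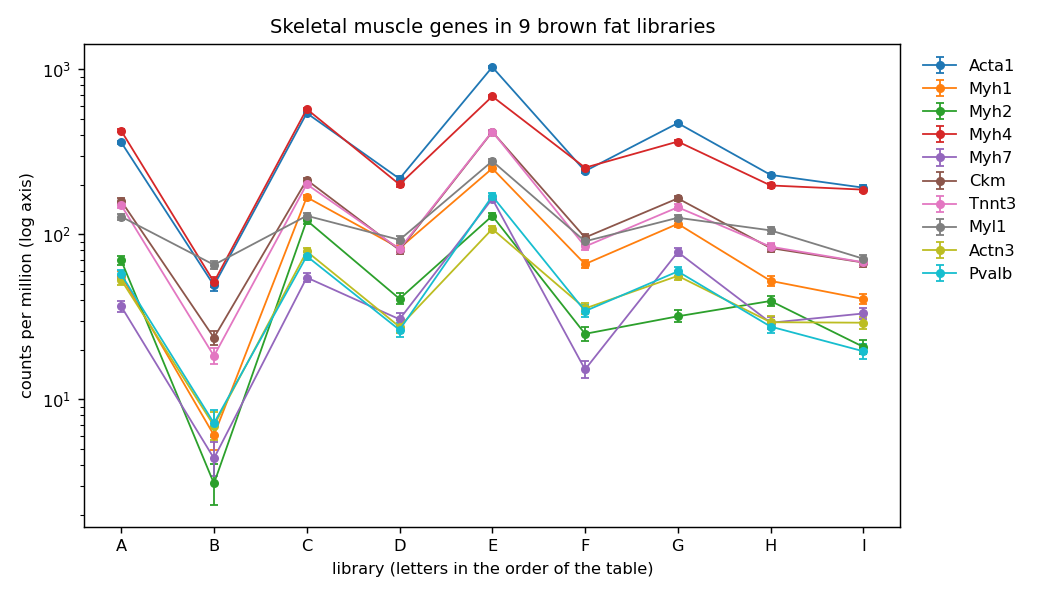
Level of each of the 10 muscle genes in CPM (log axis) in the 9 columns of the count table, in file order; points are the columns' values, bars are exact 95% intervals for counting error, and lines only join the points of a gene. Library B is lowest and library E highest in 10 of 10 genes, and Myl1 has the flattest line, from 65.4 to 278 CPM. The share of all genes with library B lowest and library E highest was not computed.

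Per kilobase of coding sequence, the median level was highest for Acta1, at 214 CPM per kb, followed by Myl1 at 187, Pvalb at 104, Tnnt3 at 103 and Ckm at 83.7 CPM per kb. Myh4 followed at 43.6, Actn3 at 13.2, Myh1 at 11.3, Myh2 at 6.78 and Myh7 at 5.71 CPM per kb. The range over the columns of each gene overlapped that of its neighbour in this order, for Acta1 (43.3 to 913 CPM per kb) and Myl1 (116 to 492 CPM per kb) as for the other neighbours. Coding length leaves out the untranslated parts, which the counts include.

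The spread of these genes was large beside that of other genes. The highest column was at least 4 times the lowest (on CPM + 1) for 10 of the 10 muscle genes, whereas 2.54% of the 12260 genes did so, and the median over all genes was 1.61-fold. The muscle genes ranged from 4.2-fold in Myl1 to 35.7-fold in Myh1 on this scale. Without library B, 7 of the 10 genes remained at or above 4-fold and 1.94% of all genes did; without both library B and library E, 3 genes did, the myosins Myh1, Myh2 and Myh7, and 1.18% of all genes.

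**Figure D2:**
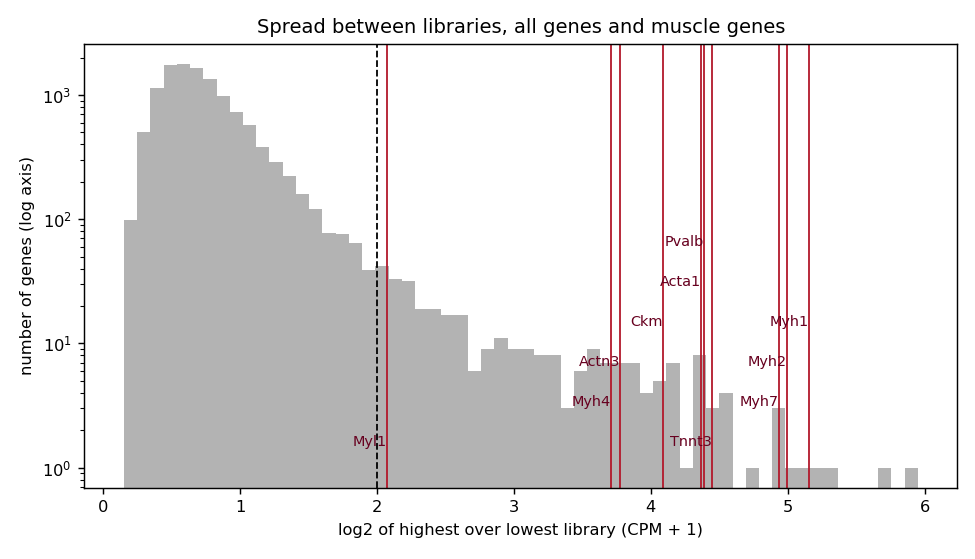
Number of genes (log axis) by the log2 of the highest over the lowest column, on CPM + 1, for the 12260 genes with a mean of at least 1 CPM (grey); red lines mark the 10 muscle genes and the dashed line the 4-fold threshold. All 10 lie to the right of the threshold, Myl1 just past it at 4.2-fold and Myh1 farthest at 35.7-fold.

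The 10 genes varied together over the columns. Over their 45 pairs, Pearson r of log2(CPM + 1) ran from 0.80 to 0.998 with a median of 0.94 over the 9 columns, and Spearman rho ran from 0.70 to 1 with a median of 0.88. By the exact two-sided permutation test of each pair, with Benjamini-Hochberg adjustment over 85 pairs tested, 45 of 45 pairs passed an adjusted p of 0.05 for r, the largest adjusted p being 0.0356. For rho 43 of 45 pairs passed by the same permutation test. The exceptions, Myh2 with Myh7 and Myh2 with Actn3, had adjusted p of 0.0694 and 0.0529. The share of all gene pairs that would pass was not computed. Without the 2 columns farthest from the median of the first gene of each pair, the median r over the 45 pairs was 0.81 and the range 0.40 to 0.99, the lowest being Myh2 with Myh7. Pairs with r of at least 0.9 fell from 37 to 17, and no p-value was computed without those columns. Ckm with Pvalb had the highest r, 0.998, with a rho of 1. Its exact permutation p for r was 2.76e-06, the smallest the test can give, and its r without those columns was 0.99.

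Some pairs of genes kept nearly constant proportions while the total changed; the ratios given were chosen after their values were seen. The ratio of Actn3 to Myh4 counts lay between 0.125 in library A and 0.157 in library E, a 1.26-fold range. The ratio of Tnnt3 to Ckm counts lay between 0.775 in library B and 1.02 in library H, a 1.32-fold range. Actn3 and Myh4 are both genes of fast fibres, with alpha-actinin-3 most abundant in the 2B type. At the other end, the ratio of Myh2 to Myl1 varied 19.8-fold and that of Myh1 to Myl1 14.0-fold, the widest of the 45 pairs.

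Fast 2B myosin led the heavy chains in each column. Over all 9 columns, Myh4 made up 62.6% of the 78356 counts of the 4 adult heavy chains, Myh1 17.8%, Myh2 10.2% and Myh7 9.41%; the coding lengths are nearly equal, and per coding length the share of Myh4 was 62.7% and that of Myh7 9.43%. Across columns the Myh4 share ranged from 55.7% in library E through a median of 62.5% to 79.1% in library B. The exact intervals of those extremes were 55.0% to 56.4% in library E and 76.6% to 81.6% in library B, so they differed by more than counting error. Myh1 ranged from 9.33% in library B to 23.3% in library D, and Myh2 from 4.76% in library B to 13.2% in library C.

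The slow share did not follow the amount of muscle RNA in a simple order. Myh7 made up 13.3% of heavy chain counts in library E and 13.2% in library G, the highest values, with overlapping intervals (12.9% to 13.8% and 12.6% to 13.9%). It made up 4.22% in library F, the lowest (interval 3.74% to 4.74%), although the summed muscle level of library F was the median of the 9. In library C, with the second highest sum, the Myh7 share was 5.96%.

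The balance of the fast types 2A and 2X also differed. Myh2 stood at 0.275 counts for each Myh1 count in library G and at 1.24 in library A (intervals 0.250 to 0.303 and 1.14 to 1.35), with a median of 0.513 over the 9 columns. In library A 1162 Myh2 counts exceeded 938 Myh1 counts; in the other 8 columns Myh1 was higher. The 3 fast heavy chains share sequence: of the 50-base windows of the Myh1, Myh2 and Myh4 reference transcripts, 27.4%, 27.2% and 18.9% occur in another gene, so reads there may have been dropped or split, and 22.6% of those of Myh7 occur in Myh6, which had at most 9 counts in a column.

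**Figure D3:**
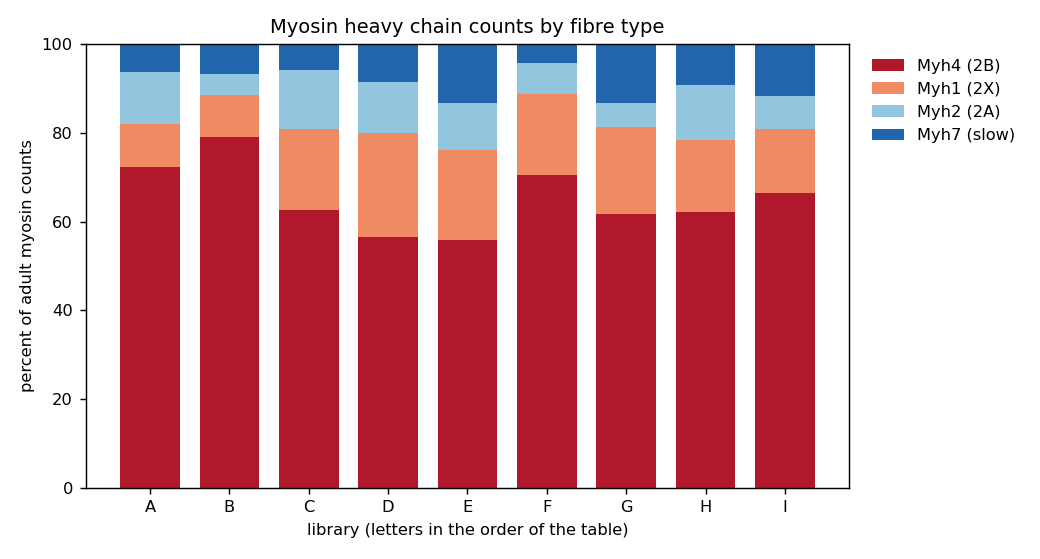
Percent of the counts of Myh4, Myh1, Myh2 and Myh7 that each contributes, in the 9 columns in file order. Myh4 is the largest share in every column, from 55.7% in library E to 79.1% in library B, and the slow Myh7 share runs from 4.22% in library F to 13.3% in library E.

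Slow and fast members of 4 further gene pairs were set against each other, a choice made after the myosin values were seen. The pairs were the troponins T (Tnnt1 over Tnnt3), I (Tnni1 over Tnni2) and C (Tnnc1 over Tnnc2), and the regulatory light chains (Myl2 over Mylpf). Library F had the lowest slow over fast ratio in 3 of these 4 pairs, as it had for Myh7 over Myh4, the pair that prompted the choice, which makes 4 of the 5 pairs. In each of those 4 pairs its interval overlapped that of the next lowest library. For Tnni1 over Tnni2 the intervals were 0.0907 to 0.166 in F and 0.105 to 0.160 in A. The overlap was slight for Myh7 over Myh4, with 0.0528 to 0.0677 in F and 0.0661 to 0.109 in B. Overlap of separate intervals does not test a difference, and whether F was lower by more than counting error was not tested. The exception was Tnnt1 over Tnnt3, where library B was lower on 8 Tnnt1 counts (0.0270, interval 0.0116 to 0.0540, against 0.0390 in library F). The highest ratio was that of library E in 3 pairs and that of library G in 2. Myl2 over Mylpf was 0.617 in library E, 0.570 in library I, 0.501 in library G and 0.116 in library F, and the intervals of E and I overlapped (0.570 to 0.668 and 0.470 to 0.689). Library I was also second highest for Tnnc1 over Tnnc2, at 0.216, between 0.259 in library G and 0.203 in library E. Tnni1 over Tnni2 was 0.377 in library E, 0.334 in library G and 0.124 in library F.

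**Figure D4:**
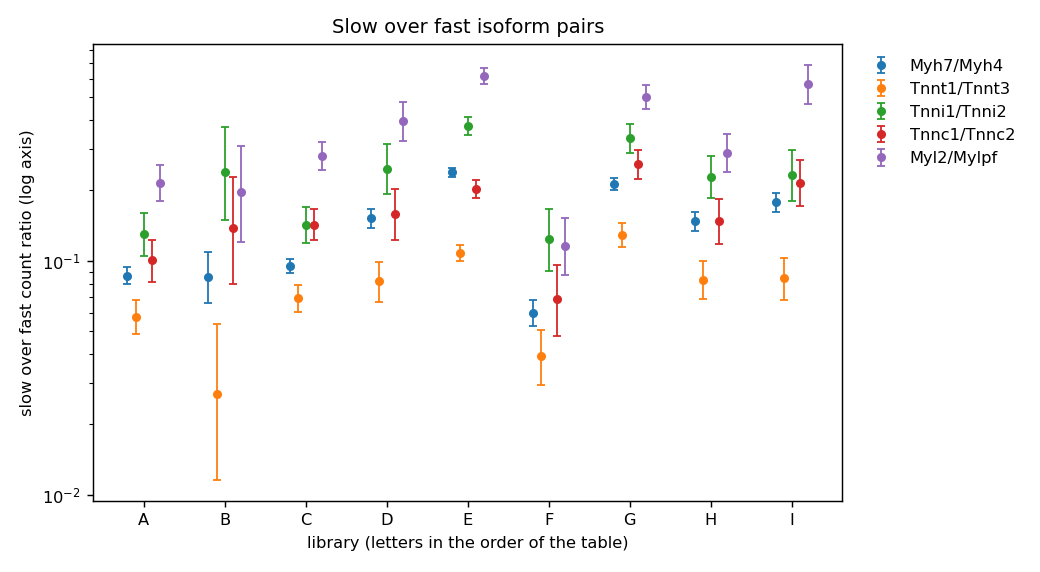
Count ratio of a slow over a fast isoform (log axis) for 5 gene pairs in the 9 columns in file order, with exact 95% intervals for counting error. Library F is lowest in 4 of the 5 pairs, with intervals that overlap the next lowest library, and library E or library G is highest in each, with library I second in 2.

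Other genes of the muscle fibre varied with the 10. Among 12250 other genes with a mean of at least 1 CPM, 116 (0.947%) had a log2 level that followed the log2 summed level of the 10 genes with Pearson r of at least 0.9, while the median r over all 12250 genes was -0.01. Of 11 other fast fibre genes, 11 did so, among them Atp2a1, the calcium pump of the fast sarcoplasmic reticulum (r of 0.99; 56.0 to 1171 CPM, median 339 CPM), and Pygm, the muscle glycogen phosphorylase (13.1 to 202 CPM, median 53.8 CPM). Of 12 genes common to skeletal fibres, 10 did so, including the giant filament protein gene Ttn (14.3 to 466 CPM, median 98.3 CPM). The exceptions Des and Mb had r of 0.86 each, with lowest levels of 97.0 and 13.8 CPM. Of 9 slow fibre genes, 4 did so (Tnnt1, Casq2, Mybpc1 and Myoz2). In library B, their lowest column, Myoz2 had 1 count, Casq2 4 and Tnnt1 8, which limits the r of these genes. The slow genes Myl2, Tnni1 and Tnnc1 had r of 0.890, 0.883 and 0.898. Tpm3 had the lowest r of the slow list, 0.82, with a 2.31-fold range on CPM + 1.

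The 10 genes whose pattern was most like the sum were Pygm, Ldb3, Ttn, Myoz1, Myot, Mybpc1, Ckmt2, Trdn, Atp2a1 and Casq1, each with r between 0.994 and 0.997 over the 9 columns. Ldb3 encodes a Z-disc protein, and its level ran from 5.69 to 89.8 CPM. Casq1, the calcium store protein of the sarcoplasmic reticulum, ran from 2.72 to 83.7 CPM, and Ckmt2, the mitochondrial creatine kinase of muscle, from 1.18 to 43.8 CPM. Library B was lowest and library E highest in each, which the choice by correlation with the sum favours. Of the 116 genes, 25 belong to the 3 skeletal muscle lists, which held 32 genes, and 91 to none of the lists.

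Developmental and cardiac isoforms were at or near 0. The embryonic and neonatal heavy chains Myh3 and Myh8 had at most 8 and 4 counts in a column, against 71 to 2539 counts of Myh7. Of 6 genes chosen for heart muscle, Nppa and Myl7 had 0 counts in all 9 columns, which allows up to 0.168 to 0.194 CPM at a floor of 3 counts. Myh6, Tnni3 and Tnnt2 were at or below 0.582 CPM, and Actc1, the cardiac actin that fetal muscle also makes, reached 3.56 CPM in library E. Its correlation with single muscle genes was 0.54 to 0.87, of which 1 of 10 passed by the exact permutation test (Myl1, r = 0.87, rho = 0.83, adjusted p = 0.0171), and without 2 columns that r was 0.37, so the relation rests on those columns. The myogenic factor Myf6 reached 2.20 CPM in library E and had 0 counts in library B, and Myod1, Myog, Myf5 and the satellite cell gene Pax7 stayed at or below 0.582 CPM. Myf6 had r of 0.91 with the summed level of the 10 genes, but its mean was below 1 CPM.

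Of the genes with a mean of at least 1 CPM in the lists for other cell types, none reached r of 0.9 with the skeletal sum. These were 5 smooth muscle, 11 brown adipocyte, 4 endothelial, 3 immune and 4 Schwann cell genes. Among all 12250 other genes the share was 0.947%, so most lists of this size would hold none. Smooth muscle genes of vessel walls summed to 76.6 to 234 CPM, a 3.06-fold range; library E was highest here as well, but library B, at 145 CPM, was above the median of 109 CPM. The r of the 5 smooth muscle genes ran from 0.02 in Cnn1 to 0.46 in Tagln. Brown adipocyte genes without Ucp1 summed to 7926 to 11145 CPM, a 1.41-fold range, and the brown fat gene Cidea stood at 1265 to 1749 CPM, so that the labelled tissue was present in each column. Of the 11 listed brown adipocyte genes, 3 ranged at least 4-fold on CPM + 1, namely Ucp1, Elovl3 and Ppargc1a, against 2.54% of all 12260 genes. Ucp1 is the target of the guide, and the columns mix both guides. Adipoq, the adiponectin gene, ranged from 576 to 735 CPM, and its r with the 10 muscle genes ran from -0.21 to 0.19 and its rho from -0.20 to 0.17; by the exact permutation test 0 of 10 pairs passed, the smallest unadjusted p being 0.62 for r and 0.613 for rho. Without the 2 farthest columns those r ran from 0.40 to 0.77. Pecam1, of endothelial cells, had r of 0.02 to 0.42 and rho of 0.03 to 0.50, and Acta2, the smooth muscle actin, r of 0.20 to 0.63 and rho of 0.27 to 0.55; 0 of 10 pairs passed for either by the exact permutation test. The smallest unadjusted permutation p for Pecam1 was 0.263 for r and 0.178 for rho, and for Acta2 it was 0.0647 for r and 0.133 for rho. Without the 2 farthest columns, r ran from -0.03 to 0.72 for Pecam1 and from 0.31 to 0.83 for Acta2. Immune and Schwann cell genes, had r from -0.50 to 0.18.

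**Figure D5:**
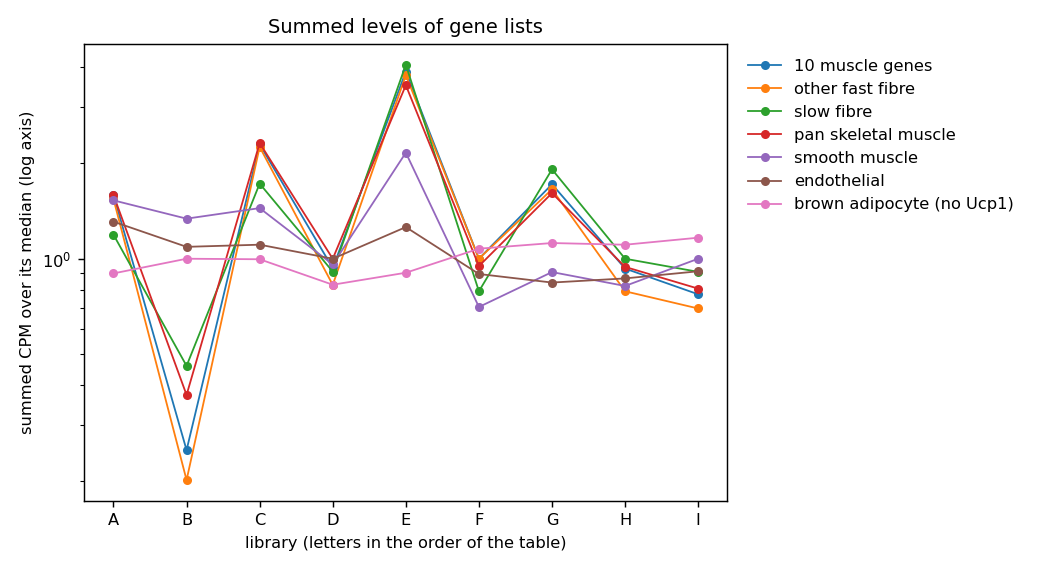
Summed CPM of each gene list divided by its median over the 9 columns (log axis), in file order; lines only join the points of a list, and the brown adipocyte sum leaves out Ucp1. The 4 skeletal muscle lists dip in library B and peak in library E, while the brown adipocyte and endothelial sums stay within 1.41-fold and 1.55-fold.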

How the data were processed

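RNA of brown fat was measured in 9 samples. The authors deposited raw counts for each Ensembl gene; the submitters' processing notes name FastQC, STAR, DESeq2 and GRCm39, without versions or roles, and no source used here names the annotation release, strand setting or counting mode. Without a known strand setting, reads of overlapping antisense genes (present at Myh1, Myh2, Myh7, Ckm, Acta1 and Tnnt3) cannot be told apart. Columns were placed in 1 tissue group by their names and to no guide; 0 columns were left out. Symbols were matched for 52083 of 55416 identifiers (GENCODE vM21, GRCm38, used for names, lengths and overlaps only).

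CPM, ranges, shares with exact 95% binomial intervals, and correlations were computed in Python 3.11.15 (scipy 1.17.1), with a pseudocount of 1 CPM on the log2 scale and exact permutation tests over all 362880 pairings. Other scalings came from edgeR 4.0.16 (TMM) and DESeq2 1.42.0 (size factors). Intervals cover counting error only, since reads carry no stated molecular identifiers. Named genes were the 10 members, the gene lists, and the 10 genes most correlated with the summed level; other genes named in the closing section were chosen after their values were seen. Members and lists were chosen with earlier results of these data known. The search for genes that follow the sum was tested on simulated data. There, only genes with a mean of at least 10 CPM were made to follow it, and the other genes varied independently. The simulation therefore does not cover following genes below that level. Alternatives were other scalings, pseudocounts and filters, coding length, rank correlation, and leaving out each column.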

Additional observations from a re-analysis of the deposited data

Results flagged for a closer look

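Dixon's ratio, the gap of the highest or lowest column to its neighbour over the whole range, was computed for 41 sets of 9 values. The values were not put on a log scale, and 13 passed the 95% critical value for 9 values. Chance flags about 1 in 20 sets only where values are normally distributed, which was not checked, and the sets are not independent. Whether the flags hold on the log2 scale was not tested. In 11 of the 13 the value standing apart was that of library E. Its level was 1032 CPM for Acta1 (next highest 543 CPM), 164 CPM for Myh7 (next 78.0 CPM), 418 CPM for Ckm (next 214 CPM), 420 CPM for Tnnt3 (next 201 CPM), 278 CPM for Myl1 (next 130 CPM) and 171 CPM for Pvalb (next 73.8 CPM). It was 89.8 CPM for Ldb3 (next 48.0 CPM), 43.8 CPM for Ckmt2 (next 19.4 CPM), 49.5 CPM for Trdn (next 22.4 CPM) and 83.7 CPM for Casq1 (next 37.2 CPM). Ldb3, Ckmt2, Trdn and Casq1 were chosen for their correlation with the summed level, which was highest in library E. That choice favours a flag in library E. The slow fibre genes summed to 431 CPM there, next to 202 CPM in the column below it. The smooth muscle sum of library E, 234 CPM, was also the highest, and its part in these values was not tested.

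Other ratios stood apart in other columns. Myh2 over Myh1 was 1.24 in library A, with 0.756 as the next highest. Myl1 over Acta1 was 1.33 in library B, with 0.461 as the next highest.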

How the results depend on the processing

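The scalings by TMM, size factors or without mitochondrially encoded genes gave ranges of the summed level of 15.5-fold to 16.1-fold and left 10 of 10 genes at or above 4-fold. Leaving out 1 column each gave a range of 5.02-fold to 15.5-fold, 7 to 10 genes at or above 4-fold, a median r of 0.88 to 0.95 and 120 to 137 genes following the sum. Over the same omissions the Myh4 share was 61.3% to 64.9%, Myh1 16.9% to 18.9%, Myh2 9.46% to 10.9% and Myh7 8.14% to 10.2%. Without both library B and library E, chosen after seeing the data, the range was 2.96-fold, 3 genes reached 4-fold and the median r was 0.81. In that setting 100 genes followed the sum, where 12230 genes, muscle genes included, had a mean of at least 1 CPM. With fewer columns, unrelated genes reach r of 0.9 more easily. Counts of following genes with columns left out are therefore not like for like with the 116 of 12250 (0.947%) over all columns. The rank correlation had a median of 0.88. A minimum mean of 10 CPM left 50 following genes, since fewer genes were tested, against 124 with no filter and 123 to 124 with smaller pseudocounts. Low counts in library B limit its ratios.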

Other observations

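Among the 91 following genes outside the lists, the more abundant include tropomyosin genes. Tpm2, which encodes a tropomyosin of the thin filament, ranged from 32.3 to 501 CPM with r of 0.98, and Tpm1 from 60.1 to 278 CPM with r of 0.93. H19, an imprinted noncoding RNA, ranged from 3.03 to 95.2 CPM with r of 0.97. Eef1a2, the translation elongation factor of adult muscle and nerve, ranged from 2.29 to 77.9 CPM with r of 0.99. These genes were picked by hand after the values were seen, over the same 9 columns, and others of the 91 were as abundant. In the opposite direction, 1 of the 12250 genes had r at or below -0.9, Cyp2j6, whose level stayed between 30.3 and 37.3 CPM.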
